A study of Mus musculus with 25 samples.

Results

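The genes described here encode the collagen chains of the mouse, 44 of the 43693 genes in the deposited table of sorted spinal cord cells. They were taken by symbol (Col, a number, a, a number) among protein-coding genes, without regard to their level, and were joined to the other tables by gene identifier, which found all 44 in each. By class, 11 encode fibrillar chains, 6 the basement membrane chains of collagen IV, 6 chains of collagen VI, and 21 other collagens. The study sequenced RNA from 25 libraries to follow the spinal cord and its astrocytes after a contusion and to test a long non-coding RNA, Zeb2os, and the transcription factor gene Zeb2 in cultured astrocytes. Sorted cells came from GFAP-Cre-/+:R26-tdT-/+ mice, in which a Gfap promoter drives Cre and leaves the red reporter tdTomato on in every cell that expresses, or once expressed, Cre. Tissue at the injury site was digested, myelin was removed and tdTomato-positive cells were collected by flow cytometry. All sorted animals carried both alleles. Sham mice had only the bone over thoracic level T9 opened and were taken after 7 days (3 libraries). Injured mice received a contusion of 60 kdyn at T9 and were taken after 7 days (3 libraries), 1 month (3) or 3 months (2), so the later groups differ from sham also in age and time since surgery. Whole epicenter tissue of C57BL/6 mice with the same injury was taken after 1 month (3) and 3 months (3), without a sham group. Each sorted or tissue library pooled 3 mice. Primary astrocytes from the brains of C57BL/6 pups of postnatal day 4 to 7 received a control or a knockdown lentivirus against Zeb2os or Zeb2 and puromycin, 2 libraries a group. Nothing in the labels says that these came from separate cultures, so their p-values measure only the spread between libraries, which may be technical.

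Collagens are trimers of chains wound into a triple helix. Collagens I, II, III, V and XI assemble into fibrils. Collagen IV forms the sheet of basement membranes, and collagen VI forms beaded filaments between membranes and fibrils. The FACIT collagens sit on fibril surfaces, the multiplexins XV and XVIII in basement membrane zones, and a few collagens span the cell membrane. In the healthy cord collagen is found mainly in the meninges and around vessels, and after injury it accumulates in the scar, where fibroblasts, pericytes, Schwann cells and astrocytes have each been described as sources.

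Total counts per library ran from 15712423 to 50211071 in sorted cells, 15423131 to 27138885 in tissue and 29026654 to 158099842 in cultures. Levels are given as CPM, a gene's count relative to its library's total after scaling by the trimmed mean of M values (TMM) within each table. The sorted libraries did not look like astrocytes alone. Gfap stood at 166 to 354 CPM in sham and 1135 to 1440.0 CPM at 7 days, against 8012 to 9056 CPM in tissue at 1 month, while Pdgfra, a marker of oligodendrocyte precursors, stood at 2133 to 2663 CPM in sham. Sham libraries summed to between 4162 and 5765 CPM over 10 astrocyte markers, 7-day libraries to between 2452 and 2924, 1-month libraries to between 1447 and 1529, and 3-month libraries to between 1249 and 1410 CPM. The sum of 10 oligodendrocyte precursor markers was 7321 to 12350 CPM over all sorted libraries. They are called sorted cells here for that reason. Sham replicate 3 stood apart: its 10 Schwann cell markers summed to 1788 CPM, against 91.4 and 233 CPM in sham replicates 2 and 1. In the cultures, libraries labelled Zeb2 knockdown held 23.2 and 16.1 CPM of Zeb2 against 147 and 134 CPM in their controls. Libraries labelled Zeb2os knockdown held 3.13 and 4.32 CPM of Zeb2os against 5.82 and 3.80 CPM in theirs, so the groups overlapped.

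Promoter sequences are shown for the 3 main collagen VI chains and the head-to-head pair Col4a5 and Col4a6, which include the 3 largest called rises at 7 days (Col6a1, Col4a6 and Col6a2), and for Col3a1, a major fibrillar chain. Each runs 5′ to 3′ on the gene's strand in the 250 bases before the RefSeq transcript start, from RefSeq on GRCm38.p6, without bases that GENCODE vM21 annotates as exon. Capitals mark matches to 3 motifs, each searched on both strands. The CCAAT box is the letters CCAAT, the GC box GGGCGG, and the TATA box TATAAA.
Col3a1: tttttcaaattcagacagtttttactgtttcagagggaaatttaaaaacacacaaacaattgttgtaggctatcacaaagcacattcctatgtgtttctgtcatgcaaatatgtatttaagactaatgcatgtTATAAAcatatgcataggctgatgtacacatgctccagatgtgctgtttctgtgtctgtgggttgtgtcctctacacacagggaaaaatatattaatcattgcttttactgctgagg
Col6a1: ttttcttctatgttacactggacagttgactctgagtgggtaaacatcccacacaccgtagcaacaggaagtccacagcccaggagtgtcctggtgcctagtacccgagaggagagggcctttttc
Col6a2: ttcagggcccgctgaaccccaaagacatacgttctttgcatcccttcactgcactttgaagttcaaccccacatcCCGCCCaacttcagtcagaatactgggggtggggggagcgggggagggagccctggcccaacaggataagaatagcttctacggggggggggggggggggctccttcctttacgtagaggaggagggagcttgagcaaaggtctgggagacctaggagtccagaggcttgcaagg
Col6a3: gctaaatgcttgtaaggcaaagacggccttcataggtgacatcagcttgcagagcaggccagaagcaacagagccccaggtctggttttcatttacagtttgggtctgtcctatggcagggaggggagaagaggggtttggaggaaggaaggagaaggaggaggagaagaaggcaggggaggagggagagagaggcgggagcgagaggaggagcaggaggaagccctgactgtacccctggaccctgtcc
Col4a5: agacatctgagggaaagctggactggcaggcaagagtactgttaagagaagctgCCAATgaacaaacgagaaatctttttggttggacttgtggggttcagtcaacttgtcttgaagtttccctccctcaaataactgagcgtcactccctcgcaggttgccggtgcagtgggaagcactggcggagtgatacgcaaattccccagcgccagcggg
Col4a6: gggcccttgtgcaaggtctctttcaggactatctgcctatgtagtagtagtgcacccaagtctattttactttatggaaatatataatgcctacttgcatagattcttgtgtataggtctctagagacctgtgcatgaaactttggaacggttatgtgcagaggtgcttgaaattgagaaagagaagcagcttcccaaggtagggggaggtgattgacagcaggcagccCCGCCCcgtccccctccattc
These lie at chr1:45311288-45311537, plus strand; chr10:76726169-76726294, minus strand; chr10:76623631-76623880, minus strand; chr1:90843972-90844221, minus strand; chrX:141475169-141475384, plus strand; and chrX:141474077-141474326, minus strand. The Col6a1 stretch is 126 bases long because 124 bases nearer the RefSeq start were left out as exon, and the Col4a5 stretch is 216 bases long for the same reason. TATAAA was found once in Col3a1, 112 bases before the start, CCAAT once in Col4a5, and GGGCGG, on the minus strand and so written CCGCCC, once each in Col6a2 and Col4a6. The windows of Col6a1 and Col6a3 hold none of the 3. Of 44 collagen genes, 35 had a promoter in the RefSeq table, in 38 entries. GGGCGG occurred in 22 of these 38 and in 32.7% of all 32851 promoters of the same length, CCAAT in 13 of 38 and 33.8%, and TATAAA in 5 of 38 and 12.4%. A match is a run of letters, not a shown binding site.

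Collagen RNA made up a larger share of the TMM-scaled library total in injured than in sham sorted cells. This share is the summed CPM written as a percentage, not the raw fraction of counts. The 44 chains together took 0.154%, 0.221% and 0.263% in the 3 sham libraries and 0.821%, 0.807% and 0.862% at 7 days. They took 0.504%, 0.493% and 0.452% at 1 month, and 0.389% and 0.395% at 3 months. No injured library overlapped sham. Fibrillar chains were the largest class throughout, with 44.2% to 60.7% of collagen counts in sham and 56.3% to 56.7% at 7 days. Collagen VI took 1.16% to 3.12% of collagen counts in sham, 3.53% to 4.07% at 7 days and 4.90% to 5.96% at 1 month. By the same measure the culture libraries held 0.722% to 1.65% collagen, and basement membrane chains made up 24.1% to 32.2% of it. In the cultures 10 astrocyte markers summed to 660 to 1374 CPM and 10 mural cell markers to 2815 to 16140 CPM. The sum of 14 fibroblast markers there was 324 to 1325 CPM. The part of other cell types in the culture values was not tested. In bulk libraries such as these, fewer cells of a type and less RNA per cell cannot be told apart.

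**Figure D1:**
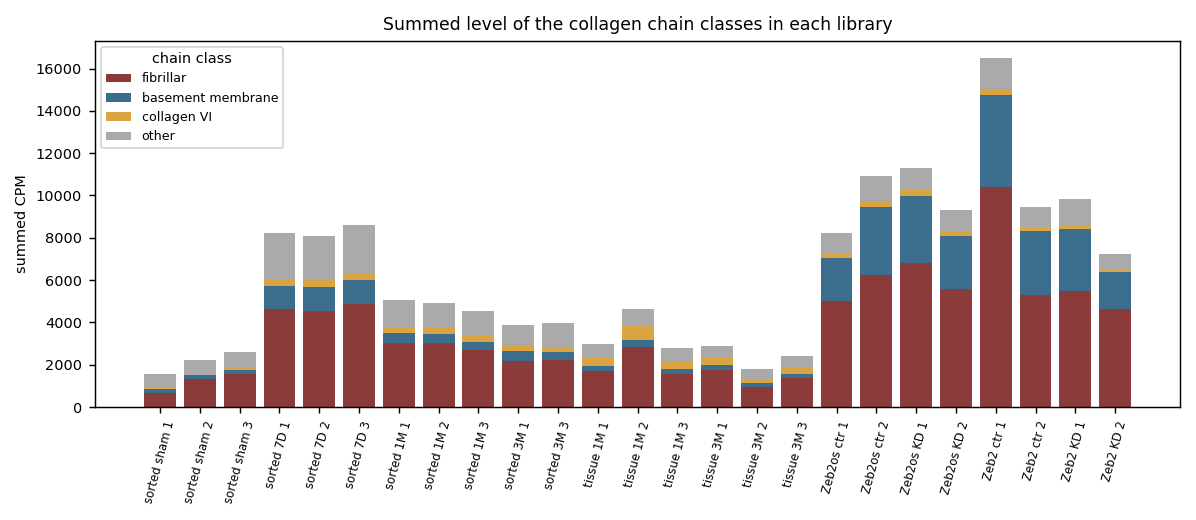
Summed CPM (y axis, starting at 0) of the fibrillar, basement membrane, collagen VI and other chains in each of the 25 libraries (x axis), scaled within each table. The 3 libraries at 7 days reach 8066 to 8616 CPM, above all other sorted and all tissue libraries, and the Zeb2 control libraries differ from each other, at 16489 and 9478 CPM.

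Of the 44 chains, 43 passed the low-count filter in sorted cells (not Col19a1), and were compared with edgeR's quasi-likelihood F test, a call being a Benjamini-Hochberg adjusted p under 0.05 over all 24286 genes tested. All p-values below are of this kind, adjusted over all genes tested in their table. At 7 days 23 chains rose and 3 fell against sham, where 9.87% of all genes tested rose and 8.41% fell. At 1 month 16 rose and 2 fell, against 6.23% and 5.83% of all genes, and at 3 months 12 rose and 3 fell, against 6.78% and 4.93%. The median log2 change over the 43 chains was 1.96 at 7 days, 1.21 at 1 month and 0.61 at 3 months, while that of all genes was -0.06, -0.02 and -0.10. Without sham replicate 3 the counts of calls were 27, 22 and 18. Of all genes tested, 9.87%, 7.1% and 8.01% were then higher and 8.76%, 6.5% and 6.49% lower. With sham and the 3-month libraries fitted alone, 7 chains were called at 3 months, all higher, where 3.12% of all genes tested were higher. Col2a1, Col8a1, Col8a2, Col9a3 and Col15a1 lost their calls (adjusted p of 0.267, 0.254, 0.221, 0.271 and 0.0717). So did Col1a1, Col1a2 and Col5a1 (0.0821, 0.0779 and 0.131). At 1 month the same choice ended the calls of Col3a1, Col4a6, Col5a1, Col8a1 and Col16a1 (0.113, 0.193, 0.0549, 0.0663 and 0.0846). At 7 days it ended those of Col3a1 and Col6a3 (0.0522 and 0.105). These 3 comparisons share the sham libraries.

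**Figure D2:**
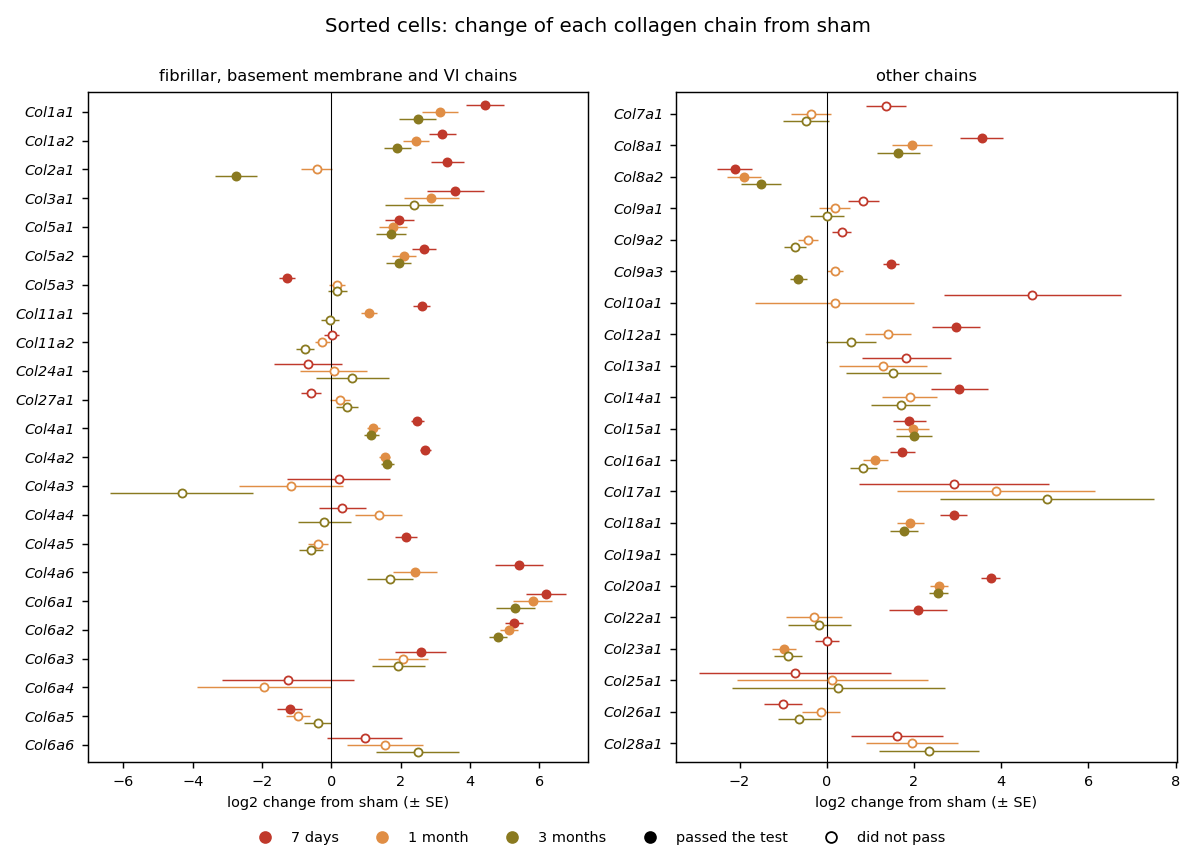
Log2 change from sham (x axis, ± SE) of each collagen chain (y axis) in sorted cells at 7 days, 1 month and 3 months, with filled points for adjusted p under 0.05; a change against a group with every library at 0 is not drawn. Col6a1 lies farthest to the right at all 3 times, Col8a2 lies left of 0 at all 3, and Col2a1 lies right at 7 days and left at 3 months.

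Among the fibrillar chains, 7 of 11 rose and 1 fell at 7 days, 6 rose at 1 month, and 4 rose and 1 fell at 3 months. Collagen I, the main collagen of scar and bone, is built from the α1 chain of Col1a1 and the α2 chain of Col1a2. Col1a1 stood at 12.8, 36.9 and 117 CPM in sham and at 1313, 1111 and 1181 CPM at 7 days. It then stood at 505, 482 and 470.4 CPM at 1 month and 345 and 280.2 CPM at 3 months. Each injured library lay above all sham libraries, which themselves differed widely. The log2 change from sham was 4.44 ± 0.54 (SE, adjusted p = 4.74e-05) at 7 days, 3.13 ± 0.51 (SE, adjusted p = 0.000786) at 1 month and 2.50 ± 0.53 (SE, adjusted p = 0.0055) at 3 months. The sham libraries held 91.2, 50.7 and 235 CPM of Col1a2 and the 7-day libraries 1167, 1087 and 1209 CPM, against 687, 699.7 and 653 CPM in the 1-month and 452 and 489.6 CPM in the 3-month libraries. Its change was 3.20 ± 0.39 (SE, adjusted p = 4.41e-05), 2.44 ± 0.38 (SE, adjusted p = 0.000518) and 1.91 ± 0.40 (SE, adjusted p = 0.00474) at the same times. Per kilobase of exon, the ratio of Col1a1 to Col1a2 was 0.267 to 1.38 in sham, 1.85 to 2.13 at 7 days and 1.3 to 1.39 at 1 month. The exon length of Col1a2 includes alternative isoforms, which lowers its level per kilobase. With sham and 3 months alone in the fit, the 3-month calls of both were lost (adjusted p = 0.0821 and 0.0779).

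Col3a1 encodes the single chain of collagen III, which mixes with collagen I in soft tissue. It stood at 11.8, 7.25 and 189 CPM in sham, 741, 878 and 859 at 7 days, 515, 561 and 455 at 1 month and 387 and 331 at 3 months. Sham replicate 3, the library with high Schwann cell markers, held most of the sham signal, and every injured library was higher still. The change was 3.58 ± 0.83 (SE, adjusted p = 0.00608) at 7 days, 2.89 ± 0.80 (SE, adjusted p = 0.0274) at 1 month and 2.38 ± 0.84 (SE, adjusted p = 0.0821) at 3 months, the last short of the threshold. Without sham replicate 3 the 3-month value was 5.23 with an adjusted p of 3.43e-08. The 1-month call was lost without any 1 of the 1-month libraries (adjusted p of 0.0617, 0.077 and 0.0679), and the 7-day call with 2 groups alone (adjusted p = 0.0522).

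Col2a1, whose product is the fibril collagen of cartilage, was called in both directions against sham. It stood at 5.08, 4.63 and 1.82 CPM in sham and 33.4, 47.8 and 37.9 CPM at 7 days. At 1 month it stood at 4.33, 1.06 and 3.35 CPM and at 3 months at 0.691 and 0.428 CPM. The 7-day libraries were all higher than sham, and the 3-month libraries all lower. The change from sham was 3.35 ± 0.48 (SE, adjusted p = 0.00018) at 7 days, -0.42 ± 0.46 (SE, adjusted p = 0.641) at 1 month and -2.75 ± 0.60 (SE, adjusted p = 0.00693) at 3 months. The 3-month call was lost without 3-month replicate 3 (adjusted p = 0.081).

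Collagens V and XI are minor fibril chains that set fibril width. Col5a1 and Col5a2 rose at all 3 times, by 1.96 to 1.72 and 2.67 to 1.95 on the log2 scale from 7 days to 3 months (adjusted p of 0.00282 and 7.55e-05 at 7 days). The 3-month call of Col5a1 was lost without 3-month replicate 3 (adjusted p = 0.103), and with 2 groups alone in the fit its calls at 1 month and 3 months were lost (0.0549 and 0.131). Col5a3, a further chain of collagen V, fell at 7 days instead. It stood at 92.8, 226 and 157 CPM in sham, 64, 61.7 and 69.7 at 7 days, 197, 179 and 158 at 1 month and 173 and 185 at 3 months. Its change at 7 days was -1.29 ± 0.24 (SE, adjusted p = 0.00131), and at 1 month and 3 months its libraries lay within the sham range. Per kilobase, Col5a3 exceeded Col5a1 by a factor of 1.65 to 8.72 in sham and stood at 0.329 to 0.4 of it at 7 days.

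Col11a1 and Col11a2 encode partner chains of collagen XI. The first was called at 7 days and the second was not, and that difference was not tested. Col11a1 stood at 31.9, 58.2 and 70.7 CPM in sham, 348, 308 and 319.8 at 7 days, 126, 121 and 92.8 at 1 month and 57.6 and 47.4 at 3 months. It rose by 2.60 ± 0.25 (SE, adjusted p = 4.4e-06) at 7 days and 1.08 ± 0.23 (SE, adjusted p = 0.00616) at 1 month, and at 3 months it was back within the sham range. Col11a2 stood at 314, 681 and 436 CPM in sham, 462, 452 and 524 at 7 days, 415, 402 and 378 at 1 month and 257 and 306 at 3 months, with changes of 0.01 ± 0.22 (SE, adjusted p = 0.992) and -0.76 ± 0.25 (SE, adjusted p = 0.064) at 7 days and 3 months. It was the collagen gene with the highest level per kilobase in sham, at 69.4 CPM per kilobase on average, and Col1a1 took that place at 7 days with 183 CPM per kilobase. The ratio of Col11a1 to Col11a2 per kilobase was 0.0461 to 0.0874 in sham and 0.329 to 0.406 at 7 days. Without sham replicate 1, Col11a2 was called lower at 3 months (-0.99, adjusted p = 0.00298). The remaining fibrillar chains, Col24a1 and Col27a1, were not called at any time against sham with all libraries and the low-count filter. Col27a1 was called lower at 7 days without sham replicate 1 (adjusted p = 0.00143) and without the low-count filter (0.0334), and higher at 3 months without sham replicate 2 (0.0342).

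The basement membrane chains are encoded by 3 head-to-head gene pairs, and 4 of the 6 rose at 7 days, 3 at 1 month and 2 at 3 months. Col4a1 and Col4a2 (chr8:11198423-11312826 and chr8:11312805-11449287 in GRCm38, their 5′ ends sharing 22 bases) make up the collagen IV of nearly every basement membrane. Col4a1 stood at 102, 81.2 and 137 CPM in sham, 558, 587 and 642 at 7 days, 259, 262 and 217 at 1 month and 261 and 214 at 3 months. Col4a2 stood at 52.4, 58.3 and 44.7 CPM in sham, 305, 332 and 384 at 7 days, 164, 147 and 139.9 at 1 month and 169 and 149 at 3 months. Both were above sham in every injured library. Col4a1 changed by 2.48 ± 0.20 (SE, adjusted p = 1.18e-06) at 7 days and 1.16 ± 0.21 (SE, adjusted p = 0.00159) at 3 months. Col4a2 changed by 2.71 ± 0.17 (SE, adjusted p = 9.37e-08) and 1.62 ± 0.18 (SE, adjusted p = 2.03e-05). Per kilobase the ratio of Col4a1 to Col4a2 was 1.48 to 1.62 at 7 days and 1.37 to 1.58 at 1 month.

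Col4a5 and Col4a6, whose starts lie 1309 bases apart on the X chromosome, rose at 7 days and were lower again at 1 month. Col4a5 stood at 19.8, 29.9 and 26.1 CPM in sham, 123, 123 and 91.6 at 7 days, 18.8, 24 and 15.2 at 1 month and 24.5 and 8.9 at 3 months. Col4a6 stood at 2.4, 1.31 and 0 CPM in sham, 53.5, 63.6 and 52 at 7 days, 7.96, 9.03 and 4.1 at 1 month and 5.89 and 2.52 at 3 months. The 7-day libraries were the highest of the sorted set for both genes, and at 1 month Col4a5 overlapped sham while Col4a6 did not. Col4a5 changed by 2.16 ± 0.31 (SE, adjusted p = 0.000169) at 7 days and -0.38 ± 0.30 (SE, adjusted p = 0.481) at 1 month. Col4a6 changed by 5.42 ± 0.69 (SE, adjusted p = 6.57e-05) at 7 days, 2.42 ± 0.63 (SE, adjusted p = 0.0181) at 1 month and 1.69 ± 0.67 (SE, adjusted p = 0.124) at 3 months. The 1-month call of Col4a6 was lost without 1-month replicate 1 or 2 (adjusted p of 0.0543 and 0.0736) with 2 groups alone (0.193) and with DESeq2 (0.0528), and without sham replicate 1 a 3-month call appeared (0.0272). Without 3-month replicate 1, Col4a5 was called lower than sham at 3 months (-1.50, adjusted p = 0.0103). Col4a3 and Col4a4, whose starts lie 72 bases apart and whose products belong to the mature basement membrane of the kidney glomerulus, stayed low. Col4a3 ranged from 0 to 2.02 CPM and Col4a4 from 0.498 to 7.72 CPM over the sorted libraries, and neither was called against sham.

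Of the 6 chains of collagen VI, 3 rose and 1 fell at 7 days, and 2 rose at 1 month and at 3 months. Its main chains are needed together for each filament, and Col6a1 had the largest called rise of all 43 chains tested. Col6a1 stood at 0.842, 0.403 and 4.48 CPM in sham, 131, 129 and 115 at 7 days, 92.3, 89 and 107 at 1 month and 76.4 and 58.8 at 3 months. Col6a2 stood at 2.12, 1.64 and 1.82 CPM in sham, 73, 81.8 and 63.1 at 7 days, 55.3, 52.5 and 88.7 at 1 month and 49.3 and 55.5 at 3 months. Both were low in all sham libraries and higher in each injured library, at 3 months as well. Col6a1 changed by 6.19 ± 0.57 (SE, adjusted p = 3.18e-06), 5.81 ± 0.56 (SE, adjusted p = 9.35e-06) and 5.31 ± 0.57 (SE, adjusted p = 1.68e-05) at 7 days, 1 month and 3 months. Col6a2 changed by 5.28 ± 0.26 (SE, adjusted p = 1.4e-08), 5.13 ± 0.26 (SE, adjusted p = 1.88e-08) and 4.81 ± 0.26 (SE, adjusted p = 5.35e-08) at the same times. These calls held under every alternative run.

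Col6a3, the long chain of the trimer, stood at 4.8, 1.98 and 51.9 CPM in sham, 122, 105 and 116 at 7 days, 88.2, 87.4 and 66.4 at 1 month and 72.1 and 74.9 at 3 months. Sham replicate 3 again held most of the sham signal and lay below all injured libraries. Col6a3 changed by 2.57 ± 0.74 (SE, adjusted p = 0.0229) at 7 days, and by 2.07 ± 0.73 (SE, adjusted p = 0.0819) and 1.94 ± 0.78 (SE, adjusted p = 0.128) at 1 month and 3 months, which did not pass. Its 7-day call was lost without sham replicate 1 (adjusted p = 0.0507) and without any 1 of the 7-day libraries (0.0506, 0.0506 and 0.053). Without sham replicate 3, Col6a3 was called at 1 month (4.57, adjusted p = 4.13e-07) and 3 months (4.43, adjusted p = 6.1e-07). Per kilobase, Col6a3 exceeded Col6a1 in sham by a factor of 1.8 to 4.25, and stood at 0.298 to 0.368 of it at 7 days.

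The other chains, Col6a4, Col6a5 and Col6a6, can take the place of Col6a3 in the trimer. Col6a5 stood at 14.5, 20.1 and 21.9 CPM in sham, 6.96, 8.52 and 8.98 at 7 days, 8.66, 14 and 6.26 at 1 month and 18.9 and 9.62 at 3 months. Its change at 7 days was -1.20 ± 0.35 (SE, adjusted p = 0.0241). Leaving out sham replicate 2 or 3 ended that call (adjusted p of 0.0565 and 0.0548) as did leaving out any 1 of the 7-day libraries (0.0696 to 0.0986). Col6a4 and Col6a6 stood between 0 and 3.40 CPM in all sorted libraries and were not called.

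Among the other 21 chains, 20 were tested in sorted cells, of which 9 rose and 1 fell at 7 days. The FACIT collagens, which bind to fibrils, gave 6 of these rises among 8 tested. Col20a1, a FACIT chain, stood at 13.4, 14.5 and 8.11 CPM in sham, 180.4, 163 and 146 at 7 days, 64.6, 70.3 and 81.8 at 1 month and 72.3 and 69.6 at 3 months. All injured libraries lay above the sham libraries. The changes were 3.76 ± 0.22 (SE, adjusted p = 4.93e-08), 2.58 ± 0.21 (SE, adjusted p = 1.88e-06) and 2.55 ± 0.22 (SE, adjusted p = 3.09e-06). Col16a1, another FACIT chain, stood at 79.5, 247 and 202 CPM in sham, 600.2, 539 and 619 at 7 days, 406, 358 and 378 at 1 month and 277 and 352 at 3 months. It rose by 1.74 ± 0.29 (SE, adjusted p = 0.000588) at 7 days and 1.11 ± 0.29 (SE, adjusted p = 0.0177) at 1 month, and the later call was lost without 1-month replicate 1 or 3 (adjusted p of 0.0627 and 0.0618). At 3 months it passed only without sham replicate 2 (0.0177) among the left-out libraries.

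Collagen IX, the FACIT collagen of cartilage fibrils, is a trimer of 3 different chains, of which 1 was called at 7 days. Col9a3 stood at 107, 114 and 120.1 CPM in sham, 285, 293 and 369 at 7 days, 131, 126 and 131 at 1 month and 56.3 and 88.2 at 3 months. It was above sham in each 7-day library and below sham in both 3-month libraries. The change was 1.48 ± 0.18 (SE, adjusted p = 4.41e-05) at 7 days and -0.65 ± 0.20 (SE, adjusted p = 0.046) at 3 months, the latter lost without sham replicate 3 (adjusted p = 0.0717) or 3-month replicate 1 (0.397) and with DESeq2 size factors (0.0571). Col9a2 stood at 32, 55.5 and 47.2 CPM in sham, 60.3, 51.7 and 58.7 at 7 days, 33.8, 35.3 and 30.7 at 1 month and 20.9 and 33.1 at 3 months. Col9a1 stood at 5.05, 12 and 7.87 CPM in sham and 16.8, 13.3 and 14.5 CPM at 7 days. Neither Col9a1 nor Col9a2 passed against sham, with changes of 0.83 ± 0.36 (SE, adjusted p = 0.131) and 0.34 ± 0.22 (SE, adjusted p = 0.343) at 7 days. Leaving out sham replicate 2 gave a 7-day call for Col9a1 (adjusted p = 0.0347), and leaving out sham replicate 1 gave a lower 3-month call for Col9a2 (0.0114). The further FACIT chains called at 7 days were Col12a1, Col14a1 and Col22a1, with log2 changes of 2.97, 3.03 and 2.09. The call of Col22a1 was lost without any 1 library other than sham replicate 3 (adjusted p of 0.0682 to 0.118). None of these 3 was called at 1 month or 3 months with all libraries and the low-count filter. Without sham replicate 3, Col14a1 was called higher at 1 month and 3 months (adjusted p of 2.26e-06 and 3.91e-06) and Col12a1 at 1 month (0.00501). Col12a1 was also called at 1 month without sham replicate 1 (0.0342). Without the filter Col14a1 was called at both times (5.39e-13 and 9.71e-09) and Col12a1 at 1 month (5.15e-10), and the replicate block gave a call for Col14a1 at 1 month (0.02).

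Both multiplexins rose at all 3 times. Col18a1, whose C-terminal piece is endostatin, stood at 46.1, 36.6 and 106 CPM in sham, 467, 438 and 508 at 7 days, 266, 224 and 221 at 1 month and 181 and 247 at 3 months. Col15a1 stood at 13.7, 14.6 and 52.5 CPM in sham, 100.1, 95 and 102 at 7 days, 101, 117 and 95.5 at 1 month and 118 and 95.2 at 3 months. Col18a1 had its highest values at 7 days, whereas Col15a1 stood at a like level at all 3 times. Col18a1 changed by 2.91 ± 0.31 (SE, adjusted p = 1.52e-05) at 7 days and 1.77 ± 0.32 (SE, adjusted p = 0.00184) at 3 months, and Col15a1 by 1.89 ± 0.38 (SE, adjusted p = 0.00217) and 2.00 ± 0.40 (SE, adjusted p = 0.00398).

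The 2 chains of collagen VIII, a network collagen of vessel walls and the cornea, went in opposite directions. Col8a1 stood at 9.2, 1.31 and 9.87 CPM in sham, 79.2, 84.2 and 72.8 at 7 days, 26, 32.7 and 19.9 at 1 month and 20.2 and 21.8 at 3 months. Col8a2 stood at 243, 84.7 and 85.2 CPM in sham, 36.1, 22.2 and 37.3 at 7 days, 37.1, 33.3 and 40.2 at 1 month and 70.3 and 26.3 at 3 months. Every injured library was above sham for the one and below sham for the other. Col8a1 rose by 3.55 ± 0.49 (SE, adjusted p = 0.000121), 1.96 ± 0.46 (SE, adjusted p = 0.0104) and 1.64 ± 0.50 (SE, adjusted p = 0.0422) at the 3 times. Col8a2 changed by -2.11 ± 0.40 (SE, adjusted p = 0.00151), -1.90 ± 0.40 (SE, adjusted p = 0.00484) and -1.51 ± 0.45 (SE, adjusted p = 0.0417). At 3 months the call of Col8a1 was lost without either 3-month library (adjusted p of 0.0923 and 0.173), and that of Col8a2 without sham replicate 1 (0.141) or 3-month replicate 3 (0.368). The 1-month call of Col8a1 was lost without 1-month replicate 2 (0.0537). Per kilobase the ratio of Col8a1 to Col8a2 was 0.00885 to 0.0664 in sham and 1.12 to 2.18 at 7 days.

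The transmembrane collagens XIII, XVII, XXIII and XXV gave no call at 7 days. Col23a1 stood at 58.1, 37.4 and 40.9 CPM in sham, 44.6, 49 and 43 at 7 days, 27, 22.8 and 18.9 at 1 month and 34.4 and 14.2 at 3 months. It was lower than sham at 1 month, with a change of -0.99 ± 0.28 (SE, adjusted p = 0.0297), which did not pass without sham replicate 1 (adjusted p = 0.0902) or 1-month replicate 2 or 3 (0.117 and 0.14). Without 3-month replicate 1 it was also called lower at 3 months (0.00512). Col28a1, known from peripheral nerve, stood at 2.21, 0 and 57.7 CPM in sham, 46, 72.7 and 60.7 at 7 days, 88.6, 91.6 and 46.9 at 1 month and 71.6 and 127 at 3 months. The gene was nearly off in sham replicates 1 and 2 and at the injured level in sham replicate 3. The change of 1.61 ± 1.05 (SE, adjusted p = 0.344) at 7 days did not pass. Without sham replicate 3 it was 5.73 at 7 days, 6.07 at 1 month and 6.46 at 3 months (adjusted p of 0.000113, 0.000103 and 6.63e-05). The part of Schwann cell RNA in the Col28a1 values was not tested.

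**Figure D3:**
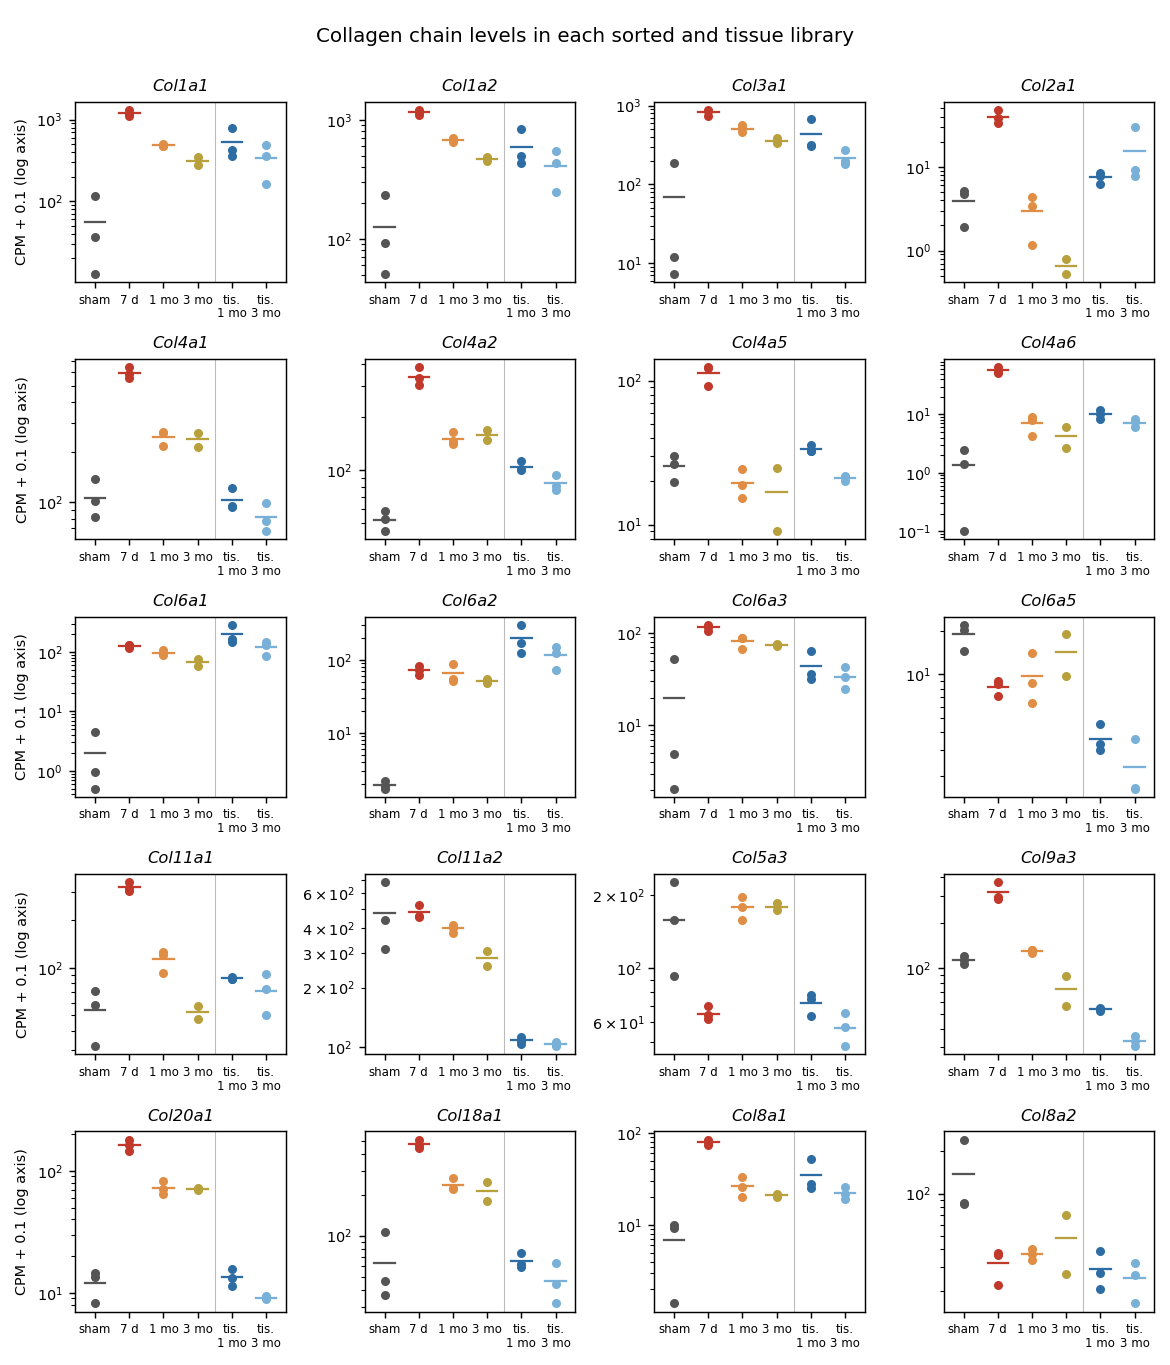
Levels of 20 collagen chains (y axis, CPM + 0.1, log axis) in every sorted and tissue library (points) with group means (bars); sorted groups are sham, 7 days, 1 month and 3 months, and tissue (tis.), scaled apart from the sorted set, is 1 month and 3 months. Col6a1 and Col6a2 leave the sham range and stay above it, and Col2a1, Col4a5 and Col4a6 peak at 7 days. Col5a3 dips at 7 days, and Col8a2 lies below sham in every injured sorted library.

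From 7 days on, the changes between injured groups were mostly downward. At 1 month 8 chains were lower and 1 higher than at 7 days, where 1.09% of all genes tested were lower and 1.52% higher. At 3 months 11 were lower and 1 higher, where 3.52% and 2.53% of all genes were. All 4 of the more abundant basement membrane chains were among those lower at both times, with log2 changes at 1 month of -1.28 for Col4a1, -1.18 for Col4a2, -2.54 for Col4a5 and -3.00 for Col4a6. Col2a1 had the largest called fall, with changes of -3.77 ± 0.49 (SE, adjusted p = 0.0014) at 1 month and -6.10 ± 0.68 (SE, adjusted p = 0.000119) at 3 months. Col11a1 changed by -1.52 ± 0.24 (SE, adjusted p = 0.00313) and -2.63 ± 0.29 (SE, adjusted p = 9.88e-05), and Col9a3 by -1.29 ± 0.18 (SE, adjusted p = 0.00177) and -2.13 ± 0.21 (SE, adjusted p = 6.92e-05). The other chains lower at both times were Col20a1, at -1.18 and -1.20, and at 3 months only Col12a1, Col8a1 and Col9a2 were called besides, at -2.41, -1.91 and -1.08. Col5a3 was the chain that rose from 7 days, by 1.45 ± 0.24 (SE, adjusted p = 0.00459) and 1.46 ± 0.26 (SE, adjusted p = 0.00391). No collagen VI chain was called. From 7 days to 3 months Col6a1 changed by -0.89 ± 0.50 (SE, adjusted p = 0.347) and Col6a2 by -0.47 ± 0.24 (SE, adjusted p = 0.294).

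These counts depend on the fit and on single libraries. With 7 days and 1 month alone in the fit, 26 chains were called, 24 of them lower, where 8.91% of all genes tested were lower. With 7 days and 3 months alone there were 27, of which 25 were lower, where 10.2% of all genes were. Without 3-month replicate 3 the 3-month count went from 12 to 6 calls, and the share of all genes called lower from 3.52% to 0.848%. Without it Col4a1, Col4a2, Col4a6 and Col20a1 had adjusted p of 0.0541, 0.0578, 0.0891 and 0.066. The call of Col12a1 was lost without any 1 library of either group (0.0783 to 0.218). At 1 month the call of Col20a1 was lost without 1-month replicate 1 (0.0519). That of Col4a6 was lost without any 1 library of either group (0.0621 to 0.113). At 3 months the call of Col8a1 was lost likewise (0.0883 to 0.205), and that of Col9a2 without 7-day replicate 1 or 3 or 3-month replicate 1 (0.0755, 0.0548 and 0.171). Without 3-month replicate 1, Col23a1 was called lower than at 7 days (0.016).

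Between 1 month and 3 months in sorted cells no chain was called with edgeR, where 0.103% of all genes tested were higher and 0.284% lower. At an unadjusted p under 0.05 there were 3 chains, and DESeq2 called 3, all lower (Col2a1, Col9a3 and Col11a1). Of all genes tested, DESeq2 called 0.992% higher and 1.61% lower. With the 2 groups alone in the fit 7 were called, all lower, where 2.95% of all genes tested were higher and 2.9% lower. Col2a1 had the largest change among chains above 1 CPM at 1 month on average, -2.33 ± 0.60 (SE, adjusted p = 0.117), followed among the named fibrillar chains by Col11a1 with -1.11 ± 0.27 (SE, adjusted p = 0.0948).

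Markers of several other cell types changed too in sorted cells. Over all genes tested, 9.87% rose and 8.41% fell at 7 days. Of 14 fibroblast markers (such as Dcn, Lum and Postn) 10 rose at 7 days, with a median log2 change of 2.87. Their sum lay between 90.4 and 148 CPM in sham, between 457 and 579 at 7 days, between 592 and 694 at 1 month and between 668 and 672 at 3 months, while the collagen total was lower at 1 month and 3 months than at 7 days. Dcn stood at 5.84 to 20.7 CPM in sham and 62.8 to 83.8 CPM at 7 days, and Lum at 0 to 3.81 and 26.9 to 39.2 CPM. All 12 endothelial markers rose at 7 days, from a sum of 70.3 to 252 CPM in sham to 598 to 710 CPM, and the sum was 326 to 356 CPM at 1 month and 531 to 766 CPM at 3 months. The Schwann cell sum lay between 91.4 and 1788 CPM in sham, between 368 and 515 at 7 days, between 1094 and 1480 at 1 month and between 1421 and 1950 at 3 months, with 3 of 10 called higher at 7 days. Microglia and macrophage markers summed to 375 to 1578 CPM in sham and 4547 to 7010 CPM at 7 days. Their sum was 3590 to 5669 CPM at 1 month and 9310 to 12130 CPM at 3 months. At 7 days 10 of these 12 markers were called higher. Of 10 mural cell markers 1 rose, near the share of all genes. Rgs5, which marks pericytes, stood at 0 to 16.6 CPM in sham and 1.64 to 12.8 CPM at 7 days. Ependymal markers fell, with 8 of 8 called lower. The part of these cells in the collagen values was not tested.

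**Figure D4:**
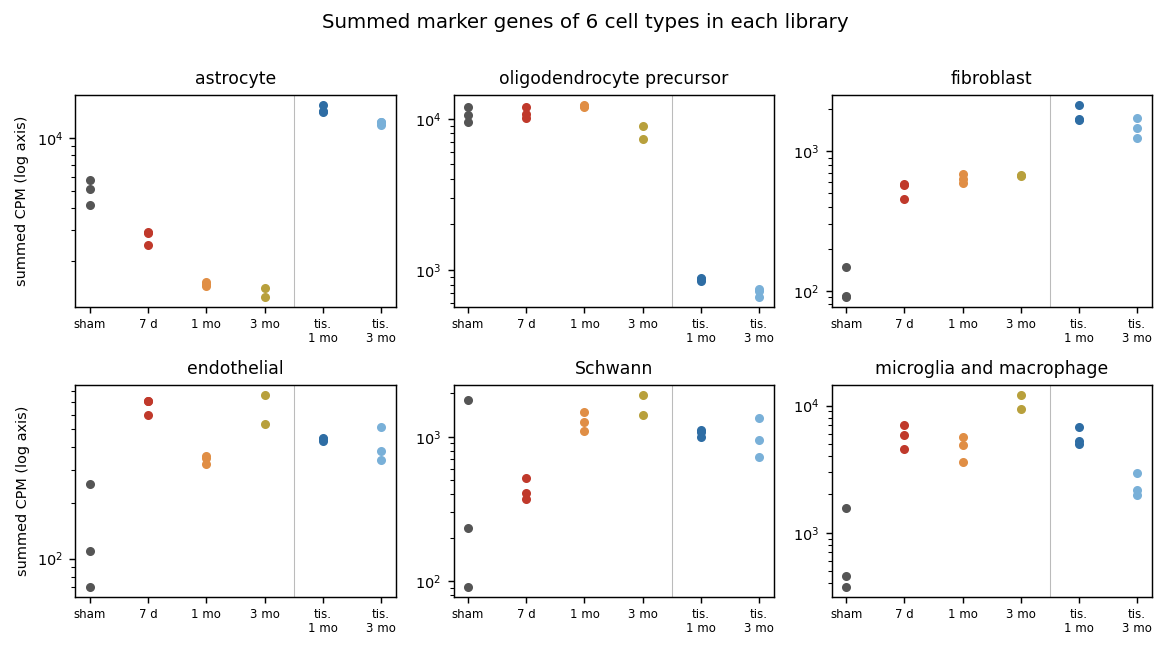
Summed CPM (y axis, log axis) of the marker lists of 6 cell types in every sorted and tissue (tis.) library, grouped as sham, 7 days, 1 month and 3 months for sorted cells. Fibroblast markers sum to 90.4 to 148 CPM in sham and to 457 CPM or more in each injured sorted library, while the astrocyte sum falls from sham to 3 months.

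Genes that modify, cut, link and bind collagen were also followed. At 7 days 7 of 15 genes for prolyl and lysyl modification rose and none fell, with a median log2 change of 0.56. Over all genes tested, 9.87% rose and 8.41% fell at 7 days. The 3 most abundant of them, P4hb, P4ha1 and Plod1, did not pass. P4hb, a subunit of prolyl 4-hydroxylase, went from 295 ± 81.1 to 436 ± 66.9 CPM (SD), 0.56 ± 0.20 on the log2 scale (SE, adjusted p = 0.0577). P4ha1, the hydroxylase's catalytic chain, went from 137 ± 35.1 to 113 ± 1.33 CPM (SD), -0.29 ± 0.19 on the log2 scale (SE, adjusted p = 0.34). Of 8 genes for folding and export, 2 rose and 1 fell. Sparc, a secreted collagen-binding protein, went from 959 ± 237 to 1782 ± 155 CPM (SD), 0.89 ± 0.19 on the log2 scale (SE, adjusted p = 0.00354). Serpinh1, the collagen chaperone, went from 185 ± 82.7 to 217 ± 16 CPM (SD), 0.23 ± 0.25 on the log2 scale (SE, adjusted p = 0.607). Of 8 genes for propeptide removal, which frees fibrillar collagen to assemble, 4 rose and 1 fell. The procollagen C-proteinase gene Bmp1 went from 103 ± 19.2 to 166 ± 3.32 CPM (SD), 0.69 ± 0.16 on the log2 scale (SE, adjusted p = 0.00523). Its enhancer Pcolce went from 3.34 ± 0.948 to 22.4 ± 4.33 CPM (SD), 2.76 ± 0.31 on the log2 scale (SE, adjusted p = 1.81e-05).

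Of 5 crosslinking enzymes 3 rose at 7 days, with a median log2 change of 2.42 over the list. Lox, which oxidises lysines so that chains can crosslink, went from 2.02 ± 1.91 to 26.6 ± 6.04 CPM (SD), 3.77 ± 0.61 on the log2 scale (SE, adjusted p = 0.000436). Loxl2 went from 3.45 ± 1.95 to 21.3 ± 4.11 CPM (SD), 2.65 ± 0.39 on the log2 scale (SE, adjusted p = 0.000195), whereas Loxl3, the most abundant of the list, went from 36.2 ± 6.06 to 37.1 ± 2.56 CPM (SD), 0.04 ± 0.21 on the log2 scale (SE, adjusted p = 0.945). Of 9 collagen receptor genes 5 rose and none fell. Itgb1, the β1 chain of the collagen-binding integrins, went from 242 ± 55.2 to 754 ± 47.5 CPM (SD), 1.64 ± 0.18 on the log2 scale (SE, adjusted p = 1.75e-05). Ddr1, a receptor tyrosine kinase for collagen, went from 562 ± 274 to 496 ± 24.8 CPM (SD), -0.18 ± 0.26 on the log2 scale (SE, adjusted p = 0.72). Lair1, an inhibitory collagen receptor of leukocytes, went from 22.8 ± 13.3 to 52.8 ± 2.43 CPM (SD), 1.21 ± 0.32 on the log2 scale (SE, adjusted p = 0.0158). At 3 months 4 of 15 modification genes were higher and 1 lower, 2 of 8 propeptide genes, 2 of 5 crosslinking enzymes and 4 of 9 receptors were higher, and none of the 8 folding genes was called, where 6.78% of all genes tested were higher and 4.93% lower. Lox then stood at 19.6 ± 9.02 CPM (SD, n = 2) and Pcolce at 30.3 ± 14 CPM.

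In whole tissue, the collagen chains that passed the test were all lower at 3 months than at 1 month. Of 42 chains tested (not Col10a1 or Col17a1) 9 fell and none rose, where 8.01% of all genes tested fell and 6.69% rose. The median log2 change was -0.49 over the chains and -0.00254 over all genes. FACIT chains gave 4 of the 9 falls. Col9a3 stood at 54, 54.6 and 52.3 CPM at 1 month and 30.6, 32.8 and 35.8 CPM at 3 months, a change of -0.70 ± 0.07 (SE, adjusted p = 0.00346). Col16a1 stood at 151, 181 and 167 CPM and 96.9, 92.9 and 104 CPM, a change of -0.76 ± 0.08 (SE, adjusted p = 0.00376). Col4a5 stood at 32.2, 35.6 and 32.4 CPM and 19.9, 21.2 and 21.6 CPM, a change of -0.68 ± 0.08 (SE, adjusted p = 0.00404). In these 3 genes the groups did not overlap and the libraries of a group lay close together, and the calls held without any 1 library. The other 6 calls were Col9a2 (-0.60), Col20a1 (-0.56), Col6a6 (-0.78), Col7a1 (-0.66), Col13a1 (-0.61) and Col27a1 (-0.44), and each was lost without at least 1 library.

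The major fibrillar chains were not called and varied widely between tissue libraries. Col1a1 stood at 424, 800.3 and 354 CPM at 1 month and 493, 165 and 362 CPM at 3 months, Col1a2 at 493, 835 and 434 and 551, 248 and 433 CPM, and Col3a1 at 316, 675 and 309 and 269.9, 181 and 196 CPM. The 1-month and 3-month libraries overlapped for Col1a1 and Col1a2, with replicate 2 the highest at 1 month and the lowest at 3 months. Replicate 2 at 1 month also held the most fibroblast marker signal, with a sum of 2149 CPM against 1686 and 1713 CPM in the other libraries of the group. The change of Col1a1 was -0.63 ± 0.42 (SE, adjusted p = 0.353) and that of Col3a1 -1.01 ± 0.31 (SE, adjusted p = 0.072). Collagen VI chains were abundant in tissue. Col6a1 stood at 167, 285 and 146 CPM at 1 month and 145, 83.8 and 129 CPM at 3 months, and Col6a2 at 173, 304 and 124 and 149, 72 and 126 CPM, with changes of -0.74 ± 0.28 (SE, adjusted p = 0.12) and -0.79 ± 0.36 (SE, adjusted p = 0.183). Tissue replicate 1 at 3 months stood apart from the rest of its group, with 29.6 CPM of Col2a1 against 7.62 and 9.01 CPM in the other libraries of the group. Without it 23 chains were called, 22 of them lower, where 15.8% of all genes tested were lower and 14.7% higher. Col4a1 (0.0154), Col4a2 (0.00469), Col3a1 (0.0254), Col6a1 (0.0465) and Col18a1 (0.00668) were among those that gained a call, with adjusted p in parentheses. Without any other single library 3 to 5 were called, where 0.333% to 4.99% of all genes tested were higher and 1.16% to 4.59% lower.

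**Figure D5:**
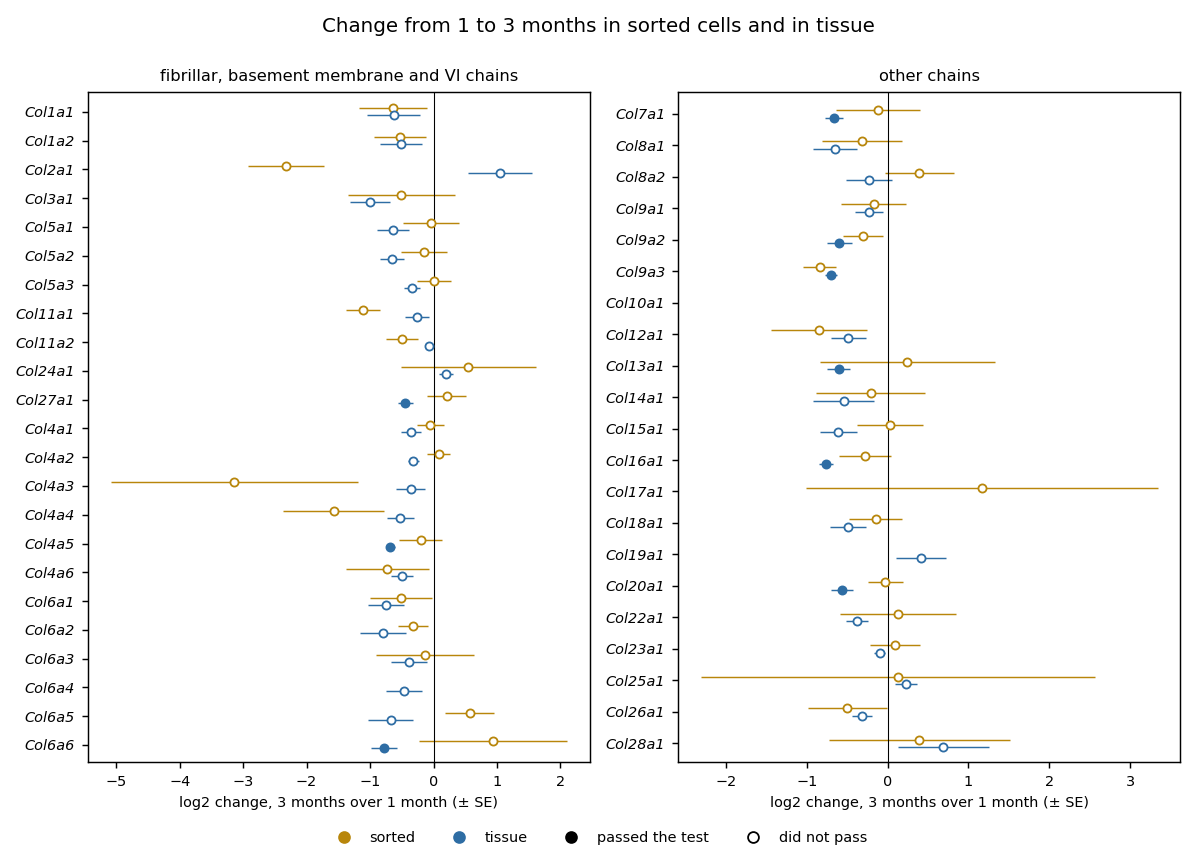
Log2 change from 1 month to 3 months (x axis, ± SE) of each collagen chain (y axis) in sorted cells and in tissue, each from its own fit, with filled points for adjusted p under 0.05; a chain with a group at 0 in every library is not drawn. Tissue points lie mostly left of 0 with 9 calls, sorted points have wider errors and no call, and Col2a1 lies on opposite sides.

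Of 15 genes of collagen modification, 10 fell in tissue from 1 month to 3 months and none rose, where 8.01% of all genes tested fell and 6.69% rose. Plod1, a lysyl hydroxylase, went from 104 ± 4.81 to 74.3 ± 4.58 CPM (SD), -0.49 ± 0.07 on the log2 scale (SE, adjusted p = 0.0074). Sparc went from 2907 ± 189.9 to 1856 ± 83.6 CPM (SD), -0.65 ± 0.08 on the log2 scale (SE, adjusted p = 0.00533), Bmp1 from 128 ± 13.4 to 76.5 ± 6.08 CPM (SD), -0.75 ± 0.09 on the log2 scale (SE, adjusted p = 0.00577) and Loxl2 from 28.1 ± 3.73 to 17.2 ± 1.23 CPM (SD), -0.71 ± 0.11 on the log2 scale (SE, adjusted p = 0.011). Microglia and macrophage markers fell too, with 10 of 12 called lower and sums of 4958 to 6754 CPM at 1 month and 1963 to 2923 CPM at 3 months, and 1 of 14 fibroblast markers was called lower. Their part in the collagen values was not tested.

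Sorted cells and tissue of the same time after injury were compared in a joint fit over 23259 genes of both tables, a comparison chosen after the data had been seen. The groups differ in mouse line, dissociation and sorting as well as in the cells they hold, and these cannot be told apart. At 1 month 16 of 43 chains were higher in sorted cells and 14 lower, where 23.3% of all genes tested were higher and 28.2% lower. At 3 months 16 were higher and 11 lower, where 22.5% were higher and 28.2% lower. At 1 month Col28a1 was higher in sorted cells by 3.43 ± 0.55 (SE, adjusted p = 0.000273), Col20a1 by 2.33 ± 0.13 (SE, adjusted p = 6.58e-08) and Col9a1 by 2.11 ± 0.28 (SE, adjusted p = 7.66e-05). Chains that were lower in sorted cells included Col19a1, with 0 CPM in all 3 sorted libraries and 1.59, 1.61 and 0.989 CPM in tissue, Col25a1 with a difference of -6.59 ± 0.59 (SE, adjusted p = 2.79e-06) and Col4a3 with -3.03 ± 0.88 (SE, adjusted p = 0.0131). Col25a1, a transmembrane chain known from neurons, stood at 0.534, 0 and 0.289 CPM in sorted cells and 24.6, 21.8 and 23.9 CPM in tissue on each table's own scale. Neuron markers summed to 157 to 176 CPM in sorted cells at 1 month and 2958 to 3934 CPM in tissue.

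Within the fibrillar class, Col11a2 was higher in sorted cells at both times, by 1.78 ± 0.08 (SE, adjusted p = 1.79e-08) and 1.27 ± 0.09 (SE, adjusted p = 5.45e-07), and so was Col5a3, by 1.21 ± 0.13 (SE, adjusted p = 1.34e-05) and 1.48 ± 0.14 (SE, adjusted p = 6.42e-06). Col1a1 differed by -0.21 ± 0.35 (SE, adjusted p = 0.649) and -0.29 ± 0.40 (SE, adjusted p = 0.569), and did not pass. At 3 months Col2a1 was lower in sorted cells, with a difference of -4.90 ± 0.81 (SE, adjusted p = 0.000397). Col4a1 was higher in sorted cells at both times (1.15 and 1.38), as was Col4a2 (0.43 and 0.75). In collagen VI, Col6a1 and Col6a2 were lower in sorted cells, with differences of -1.15 ± 0.25 (SE, adjusted p = 0.00237) and -1.71 ± 0.34 (SE, adjusted p = 0.0012) at 1 month, whereas Col6a3 was higher, by 0.79 ± 0.25 (SE, adjusted p = 0.0211). The ratio of Col6a3 to Col6a1 per kilobase was 0.227 to 0.36 in sorted cells and 0.0792 to 0.0807 in tissue at 1 month. The 1-month call of Col6a3 was lost without 1-month replicate 1 or 2 of the sorted set (0.0642 and 0.0574) or replicate 1 or 3 of tissue (0.0852 and 0.0908). At 3 months the 3 calls were also lost when 1 sorted library was left out: Col6a1 without replicate 3 (0.0969), and Col6a2 and Col6a3 without either.

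In the cultures no chain passed the test after either knockdown. In the Zeb2os set 42 chains were tested (not Col6a5 or Col6a6) and none was called by edgeR, where 0.121% of all genes tested were higher and 0.0675% lower. There were 5 at an unadjusted p under 0.05, and DESeq2 called 2, 1 in each direction. Of the 20741 genes tested, DESeq2 called 259 higher and 281 lower. Col18a1 had the smallest adjusted p among the named chains. It stood at 216 and 277 CPM in the controls and 124 and 112 CPM in libraries labelled knockdown, a change of -1.07 ± 0.23 (SE, adjusted p = 0.118). Control replicates 1 and 2 differed in depth, at 78818376 and 158099842 counts, and leaving out either gave 6 calls. Over all genes tested, 10.8% were then higher and 9.33% lower without control replicate 1, and 2.25% and 1.91% without control replicate 2. Col18a1 was called both times (adjusted p of 1.31e-11 and 0.000154). Col16a1 was called both times too (0.00276 and 0.0132), at 79.4 and 81.2 CPM in controls and 151 and 104 CPM in the knockdown-labelled libraries. Col7a1 stood at 93.6 and 114 CPM in controls and 257 and 165 CPM in the knockdown-labelled libraries, which did not overlap. It was called higher by DESeq2 (1.04, adjusted p = 0.00588). In edgeR it was called with the replicate block (0.0231) and without the low-count filter (0.00519). Its log2 change was 0.90 without control replicate 1 and 1.18 without control replicate 2. Col1a1 stood at 1589.5 and 1907 CPM in controls and 2479 and 1856 CPM, overlapping, a change of 0.31 ± 0.25 (SE, adjusted p = 0.672).

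In the Zeb2 set 38 chains were tested (not Col13a1, Col24a1, Col25a1, Col6a4, Col6a5 or Col6a6) and none was called, nor was any gene of the whole table by edgeR, that is 0.0% higher and 0.0% lower. At an unadjusted p under 0.05 there were 6 chains and 681 genes in all, and DESeq2 called none of the chains, and 14 genes higher and 14 lower. The controls themselves differed widely: Col1a1 stood at 4703 and 1974 CPM in controls and 2327 and 1417 CPM in knockdown libraries. Col4a1 stood at 2492 and 1870.3 CPM and 1092 and 897 CPM, with each knockdown library below each control, a change of -1.13 ± 0.35 (SE, adjusted p = 0.999). Col6a3 stood at 100.3 and 31.7 CPM and 22 and 6.34 CPM, a change of -2.22 ± 0.78 (SE, adjusted p = 0.999). Col9a3 went the other way, at 4.78 and 1.64 CPM and 34 and 9.39 CPM, a change of 2.76 ± 0.80 (SE, adjusted p = 0.999). Without knockdown replicate 2, 5 chains were called, 2 higher and 3 lower: Col9a3 (0.0381), Col18a1 (0.0298), Col16a1 (0.0209), Col2a1 (0.0468) and Col8a2 (0.0461), with adjusted p in parentheses. Of all genes tested, 1.53% were then higher and 2.78% lower. A change that misses the threshold with 2 libraries a group does not show that a chain did not change. In cultures the ratio of Col11a1 to Col11a2 per kilobase was 9.26 to 11.8 in the Zeb2os controls and 15.5 to 56.4 in the Zeb2 controls.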

How the data were processed

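RNA-seq read counts per gene were deposited by the authors as 4 unnormalized tables, made with FastQC, TopHat2 2.1.0, Cufflinks 2.2.1 and DESeq2 on mm10, per the submitters' processing notes. The counting tool, annotation and strand setting are not given in the sources used here, and the kit marks strand. From the counts, CPM and log2 changes were computed with edgeR 4.0.16 (R 4.3.3, limma 3.58.1): filterByExpr with a minimum count of 10, TMM scaling, the quasi-likelihood F test and Benjamini-Hochberg adjustment over all genes tested, with a threshold of 0.05. Every adjusted p in the text is edgeR's unless DESeq2 (1.42.0) is named. Each table had its own fit, the 4 sorted groups sharing 1. The code was tested on simulated data. The members, gene lists and tests were chosen with earlier results of these data known, and the joint fit of sorted cells and tissue after the data were seen.

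Values in every library are given for the 4 most abundant chains of each class, up to 3 called chains with the largest change per comparison and direction, and their trimer or gene-pair partners. Other chains named, among them Col5a1, Col5a2, Col7a1, Col12a1, Col13a1, Col14a1, Col22a1 and Col27a1, were called at least once in some comparison and were chosen, like Col24a1, after their values were seen. 33 rows of the Zeb2 table were not used, being absent from the sorted table. Levels per kilobase use GENCODE vM21 exons. Alternatives were DESeq2 size factors, no low-count filter, DESeq2, a replicate block, 2 groups alone, and each library left out.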

Additional observations from a re-analysis of the deposited data

Results flagged for a closer look

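In 3 of the 43 chains tested, the change from 1 month to 3 months differed between sorted cells and tissue by a test of the interaction in the joint edgeR fit, chosen after the data were seen, which called 14.0% of all 23259 genes tested. For Col2a1 the difference, sorted minus tissue, was -3.44 ± 0.93 on the log2 scale (SE, adjusted p = 0.0309). Means here are on the scale of the joint fit. That of Col2a1 went from 2.82 to 0.521 CPM in sorted cells and from 7.71 to 16.1 CPM in tissue. On the separate scale of the tissue set, 3-month replicate 1 stood at 29.6 CPM, against 7.62 and 9.01 CPM in the other 3-month libraries. For Col11a2 the difference was -0.52 ± 0.12 (SE, adjusted p = 0.0178), with means of 384 and 261 CPM in sorted cells and 112 and 108 CPM in tissue. For Col27a1 it was 0.57 ± 0.17 (SE, adjusted p = 0.0445), with means of 161 and 179 CPM in sorted cells and 50.9 and 38.0 CPM in tissue. Groups of 2 or 3 libraries were too small for a test of single outlying libraries.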

How the results depend on the processing

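Of 119 calls of the chains described by library, 84 held in every alternative that gave an adjusted p, 35 were lost in at least 1 and none changed sign. DESeq2 gave no adjusted p for 3 of them. Without the low-count filter 24 chains were called at 3 months against sham, where 6.35% of all genes tested were higher and 5.2% lower. Against 7 days it gave 22 at 1 month (2.25% and 2.14% of all genes) and 28 at 3 months (3.63% and 4.06%). At 3 months against 1 month in sorted cells it gave 4 (1.28% and 1.06%). It gave 2 after Zeb2os (0.82% and 1.17%) and 4 after Zeb2 knockdown (0.328% and 0.184%). DESeq2 gave 16 at 1 month against 7 days, 3 at 3 months against 1 month and 2 after Zeb2os knockdown. Of all genes tested, it called 781, 241 and 259 higher in these comparisons and 740, 390 and 281 lower. With 2 groups alone 7 were called at 3 months against sham, where 3.12% of all genes tested were higher and 1.03% lower. Against 7 days 26 were called at 1 month (8.32% and 8.91% of all genes) and 27 at 3 months (7.25% and 10.2%). At 3 months against 1 month 7 were called (2.95% and 2.9%). The cause was not tested.

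Leaving out 1 library gave 6 to 10 called chains at 3 months against 7 days, 3 to 23 in tissue, 0 to 6 after Zeb2os and 0 to 5 after Zeb2 knockdown. In tissue, 0.333% to 14.7% of all genes tested were then higher and 1.16% to 15.8% lower. A lone library left in a group is assumed to vary like the others. Over all results with no call there were 114 changes of sign under an alternative, 0 of them past the threshold. Among those called under at least 1 alternative, the sign turned without 1 library for 6. After Zeb2os knockdown the log2 change ranged from -0.042 to 0.61 for Col4a1 and from -0.13 to 0.65 for Col6a3. After Zeb2 knockdown it ranged from -3.80 to 0.11 for Col8a2. Between sorted cells and tissue it ranged from -0.050 to 0.61 for Col3a1 at 1 month (-0.04 without tissue replicate 1), and at 3 months from -1.43 to 0.046 for Col4a5 and from -0.11 to 1.33 for Col8a2.

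Deviations of same-numbered libraries correlated at -0.044 to 0.081 in sorted cells and -0.27 to -0.011 in tissue, with no sign of pairing. They correlated at -0.026 in the Zeb2os and 0.39 in the Zeb2 set. With 2 libraries a group the 2 pairs of a set always give the same value. Pairing in the cultures therefore cannot be decided. With a replicate block 4 chains were called in tissue, where 0.85% of all genes tested were higher and 1.73% lower. It gave 2 after Zeb2os (1.22% and 1.45% of all genes) and 3 after Zeb2 knockdown (0.193% and 0.256%). Against sham it gave 26, 20 and 18 at the 3 times. Of all genes, 9.78%, 6.16% and 6.32% were then higher and 7.94%, 5.55% and 4.84% lower. With 2 or 3 libraries a group, small changes and chains near 0 CPM were not resolved at this depth.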
